A study of Mus musculus with 6 samples.

Results

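snoRNA host genes carry small nucleolar RNAs in their introns, and those chosen here are noncoding. The 9 described here, Gas5, Snhg1, Snhg3, Snhg4, Snhg5, Snhg6, Snhg8, Snhg12 and Zfas1, were taken by symbol from the 53465 genes of the deposited table. They were measured in a mouse leukaemia line, Nras(G12D)/MLL-AF9, whose cells carry a mutant Nras and the MLL-AF9 fusion of Kmt2a with Mllt3 and were grown with added cytokines (SCF, IL-3 and IL-6). Cells received 4'-O-methylpyridoxine (OMP) at 100 µM for 6 days, or an equal volume of PBS, called Vehicle. OMP, or ginkgotoxin, is a vitamin B6 analog that inhibits pyridoxal kinase. There were 3 OMP and 3 Vehicle libraries of poly(A)-selected RNA, and both groups carried the same 2 oncogenic lesions. The labels name neither a clone number nor separate cultures, so the p-values below measure the spread between libraries, which may be technical. The comparison shows which host transcripts differed between OMP and Vehicle cells.

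A host gene is transcribed and spliced like a messenger RNA, and its excised introns are trimmed into snoRNAs that guide chemical modification or cleavage of ribosomal RNA. Box C/D snoRNAs guide ribose methylation, and box H/ACA snoRNAs guide pseudouridylation. The spliced exons of noncoding hosts usually encode no conserved protein and are often degraded by nonsense-mediated decay once ribosomes engage them. In many hosts they begin with a 5′ terminal oligopyrimidine (TOP) tract like that of ribosomal protein mRNAs. A poly(A) library therefore reads mainly the spliced exon part and not the snoRNA itself.

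The identity of the cells was checked first. The leukaemic genes Hoxa9 and Meis1, both known targets of MLL fusions, were expressed, at 62.9 ± 2.39 and 13.7 ± 0.552 RPKM in OMP cells and 61.8 ± 4.20 and 12.6 ± 0.573 RPKM in Vehicle cells (SD, n = 3 each). RPKM is a read count scaled to gene length in kilobases and to library size. Of 9 leukaemic and myeloid genes tested 2 rose and 5 fell, where 15.4% of all genes tested rose and 27.5% fell. The 2 that rose were Ptprc and Itgam. Ptprc had 139 RPKM in OMP cells and 107 RPKM in Vehicle cells (limma adjusted p = 0.000200). Itgam had 51.1 RPKM in OMP cells and 38.3 RPKM in Vehicle cells (limma adjusted p = 0.000233). Those that fell were Mpo, Elane, Kit, Cd34 and Csf3r. The granule protein genes Mpo and Elane stood at 2.63 and 370 RPKM in OMP cells, against 12.3 and 993 RPKM in Vehicle cells, and the receptor gene Kit at 8.88 RPKM in OMP cells, against 19.8 RPKM in Vehicle cells. Fewer cells of a type and less RNA per cell cannot be told apart in such bulk samples, and the part of these and the following markers in the host gene values was not tested. Markers of B cells, T cells and erythroid cells, 5 genes each, summed to at most 0.587, 0.174 and 0.724 RPKM in any OMP library, and to at most 0.551, 0.165 and 0.959 RPKM in any Vehicle library. The 5 stromal and endothelial markers summed to 57.2 to 59.3 RPKM in OMP libraries, against 84.0 to 88.3 RPKM in Vehicle libraries, and 2 of them were tested. Nearly all of that sum was Pecam1, an adhesion molecule of endothelium that leukocytes also carry, which fell to 55.6 ± 1.17 RPKM in OMP cells, against 83.4 ± 2.40 RPKM in Vehicle cells (limma adjusted p = 2.35e-05). Pdgfrb had 2.69 ± 0.164 RPKM in OMP cells and 3.02 ± 0.160 RPKM in Vehicle cells (limma adjusted p = 0.446). The fibroblast collagen gene Col1a2 was listed at 0 in every library, and Col1a1 reached at most 0.0965 RPKM in OMP libraries and 0.119 RPKM in Vehicle libraries. Read totals worked back from the deposited values were 3494986 to 3720117 reads for OMP and 3737843 to 4247619 reads for Vehicle, so the groups did not overlap in depth. With reads thinned in a random draw to 3487780 in each library the same number of host genes, 6, passed the test. Gas5 passed narrowly, at a limma adjusted p of 0.0497. Over all genes 4575 were called, against 4735 without thinning. An equal count of host genes cannot show whether depth had a part in the results.

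The snoRNAs that these genes carry are shown first, since they define the hosts. GENCODE release M21 (mouse build GRCm38) places 32 snoRNA models at 30 positions inside 8 of the 9 genes, 10 models in Gas5, 8 in Snhg1, 5 in Snhg12, 3 in Zfas1, 2 each in Snhg3 and Snhg5, and 1 each in Snhg6 and Snhg8. The Ensembl identifier given for Snhg4 has no entry in that release. A representative of each annotated host follows, 5′ to 3′, with capitals marking box C (TGATGA in the first 20 bases) and box D (CTGA in the last 14 bases), or ACA in the last 8 bases for box H/ACA RNAs. Only the RNA's own strand was searched.
Snord47 (host Gas5, chr1:161038082-161038158, + strand): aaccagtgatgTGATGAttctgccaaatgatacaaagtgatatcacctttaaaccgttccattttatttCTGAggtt
Gm25855 (host Snhg1, chr19:8723993-8724064, + strand): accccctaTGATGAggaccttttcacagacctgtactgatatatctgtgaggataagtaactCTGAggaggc
Snord50a (host Snhg5, chr9:88521529-88521600, - strand): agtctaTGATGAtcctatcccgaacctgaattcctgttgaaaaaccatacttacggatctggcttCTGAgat
Snord87 (host Snhg6, chr1:9942463-9942549, - strand): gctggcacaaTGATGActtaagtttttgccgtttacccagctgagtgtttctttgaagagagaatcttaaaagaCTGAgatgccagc
Snord12 (host Zfas1, chr2:167065276-167065365, + strand): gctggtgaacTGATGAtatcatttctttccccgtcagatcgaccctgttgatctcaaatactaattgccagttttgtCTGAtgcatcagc
Snord99 (host Snhg12, chr4:132310691-132310764, + strand): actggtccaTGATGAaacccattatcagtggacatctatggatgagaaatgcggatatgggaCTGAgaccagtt
Snora24 (host Snhg8, chr3:123507937-123508066, - strand): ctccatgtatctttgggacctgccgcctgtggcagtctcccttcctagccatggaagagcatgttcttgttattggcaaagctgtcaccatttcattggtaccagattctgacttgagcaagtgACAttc
Snora73a (host Snhg3, chr4:132352775-132352979, - strand): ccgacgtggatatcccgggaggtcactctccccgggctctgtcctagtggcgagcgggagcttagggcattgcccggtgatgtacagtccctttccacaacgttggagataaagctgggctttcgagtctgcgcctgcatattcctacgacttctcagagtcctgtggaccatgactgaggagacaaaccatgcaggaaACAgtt
Both box C and box D letters were found in 19 of the 32 models, against 20.1% of all 1507 snoRNA models of the release, and the ACA letters in 8 models, against 46.8%. The ACA letters were counted whatever a model's class, so that Mir5117 in Gas5, which has the C and D letters too, is among the 8. A match of letters is a description and not evidence of a working box.

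Of the 32 snoRNA models 31 were listed at 0 in all 6 libraries. The annotation places 29 of the models wholly inside an exon of some host isoform, where an intron is retained, 1 partly inside, and 2 outside any host exon, Snora73b in Snhg3 and Snord87 in Snhg6. How reads at a position shared by 2 genes were treated is not given in the sources used here, and its part in these zeros was not tested. Snord87 alone had reads. It had 7, 13 and 10 reads in OMP libraries, against 7, 15 and 6 reads in Vehicle libraries. The groups overlapped, and the ratio of reads, scaled to library size, was 1.20 with an exact 95% interval from 0.694 to 2.09 that covers counting error only (limma log2 fold change 0.33 ± 0.33 SE, adjusted p = 0.443).

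**Figure D1:**
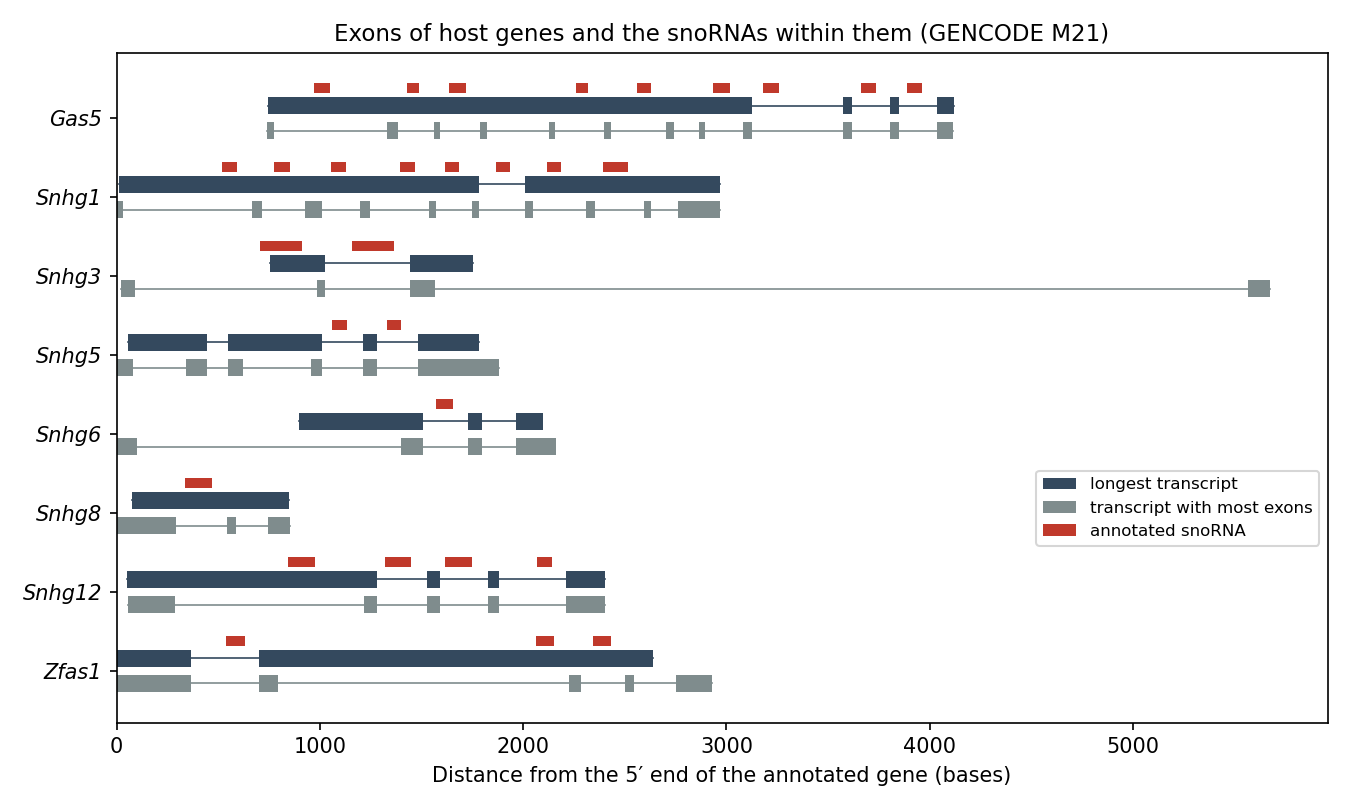
Exons of the longest annotated transcript and of the transcript with most exons among those not typed as intron-retaining, drawn as bars along the distance in bases from the 5′ end of each of the 8 host genes that the annotation holds, with annotated snoRNAs as red bars above. Exons of the longest transcript of Gas5, Snhg1, Snhg8, Snhg12 and Zfas1 span positions of snoRNAs that lie in introns of the other transcript. In Snhg3 such an exon spans part of a snoRNA.

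OMP cells held less RNA of 4 host genes, Snhg1, Snhg12, Zfas1 and Snhg5, and more of Snhg4. Snhg1 was 2.54-fold lower, Snhg12 2.12-fold, Zfas1 1.74-fold and Snhg5 1.497-fold, while Snhg4 was 1.66-fold higher. Gas5 was 1.10-fold higher, a call that several settings removed, and Snhg6 and Snhg8 did not pass the test. Folds and log2 fold changes are OMP over Vehicle of RPKM + 0.5, which slightly understates changes of low genes, and the test was limma's moderated test with Benjamini-Hochberg adjustment over all 11020 genes tested. A gene was tested when 3 or more libraries reached 1 RPKM, and the call threshold was an adjusted p under 0.05. Of the 9 host genes 8 passed that filter, with a lowest value of 7.40 RPKM in any library, and 6 of these 8 were called, where 43.0% of all genes tested were. The 4 falls stand beside 27.5% of all genes called lower, and the 2 rises beside 15.4% called higher. Falls of at least 2-fold were called for 2 host genes, Snhg1 and Snhg12, and for 2.21% of all genes. The median log2 fold change was -0.31 over the 8 host genes and -0.09 over all genes tested. The split of calls over all genes depended on scaling, with 1702 higher and 3033 lower as deposited, 1215 and 3973 after TPM rescaling, 2366 and 2236 after median-of-ratios scaling, and 2244 and 2321 after quantile normalization. The 4 falls and the rise of Snhg4 were called under each of these.

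**Figure D2:**
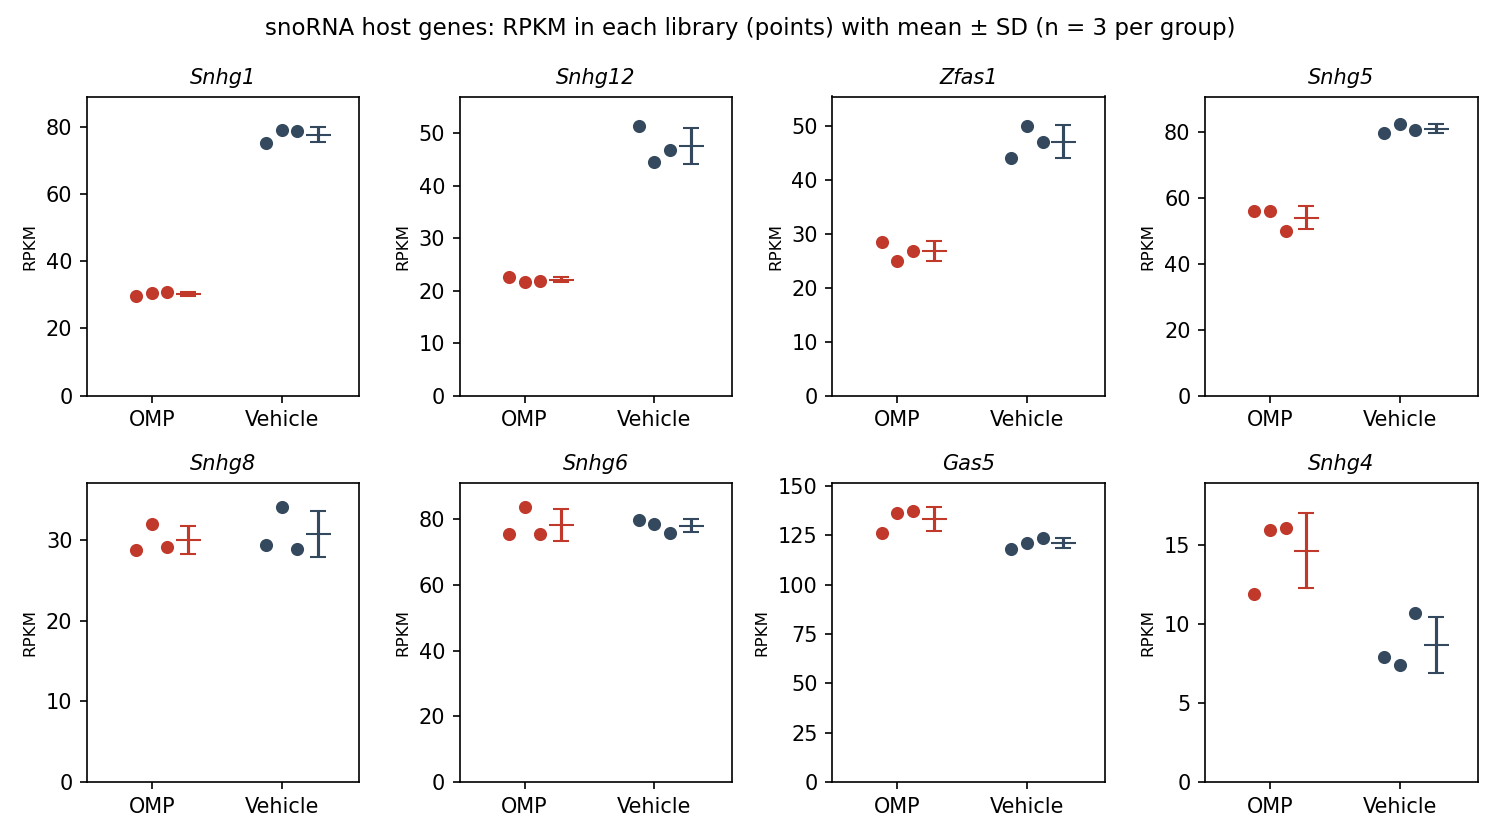
RPKM of the 8 host genes with reads, in each OMP library (red) and each Vehicle library (dark), with mean ± SD beside the points (n = 3 per group). Every OMP library lay below every Vehicle library for Snhg1, Snhg12, Zfas1 and Snhg5, and above for Gas5 and Snhg4.

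Among hosts of box C/D snoRNAs, Snhg1, the host of a series of such RNAs and a known target of nonsense-mediated decay, moved furthest. Snhg1 (ENSMUSG00000108414, chromosome 19, 8723475 to 8726443) had 29.6, 30.4 and 30.7 RPKM in OMP libraries, against 75.0, 79.0 and 78.8 RPKM in Vehicle libraries. The OMP libraries were closely grouped and far below all Vehicle libraries. The log2 fold change was -1.34 ± 0.04 SE (limma adjusted p = 3.46e-07), and 87 of the 11020 genes tested, or 0.789%, had a lower one.

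Snhg5, the host of Snord50a and Snord50b, fell less. It is at chromosome 9, 88521050 to 88522929. Snhg5 had 56.0, 56.0 and 49.98 RPKM in OMP libraries, against 79.8, 82.5 and 80.8 RPKM in Vehicle libraries, with no overlap between groups (log2 fold change -0.58 ± 0.05 SE, limma adjusted p = 8.02e-05). Zfas1 is transcribed from the opposite strand at the 5′ end of Znfx1 and hosts Snord12 and related RNAs. Zfas1 (chromosome 2, 167062934 to 167065862) had 28.6, 24.9 and 26.9 RPKM in OMP libraries, against 44.0, 50.1 and 47.1 RPKM in Vehicle libraries. The highest OMP library stayed below the lowest Vehicle library, and the log2 fold change was -0.80 ± 0.07 SE (limma adjusted p = 5.50e-05).

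Gas5, named for its accumulation in growth-arrested cells and long used as an example of a TOP transcript cleared by nonsense-mediated decay, was the most abundant host. Gas5 (ENSMUSG00000053332, chromosome 1, 161034422 to 161038539) had 126, 136 and 137 RPKM in OMP libraries, against 118, 121 and 124 RPKM in Vehicle libraries. Each OMP library was above each Vehicle library, by a small margin for the lowest of them (log2 fold change 0.14 ± 0.04 SE, limma adjusted p = 0.0335). The call was lost after TPM rescaling (log2 fold change 0.05, adjusted p = 0.341), quantile normalization (adjusted p = 0.0530) and without a filter (adjusted p = 0.0631). It was also lost without Vehicle replicate 1 (adjusted p = 0.101), Vehicle replicate 2 (0.0747), OMP replicate 2 (0.0902) or OMP replicate 3 (0.102), and over all alternatives the limma adjusted p ran from 0.00302 to 0.341. Snhg6, the host of Snord87, is at chromosome 1, 9941959 to 9944118. Snhg6 had 75.4, 83.8 and 75.4 RPKM in OMP libraries, against 79.7, 78.5 and 75.9 RPKM in Vehicle libraries. The groups overlapped fully, and the 95% interval of the fold ran from 0.922 to 1.09 (limma adjusted p = 0.976).

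Among hosts of box H/ACA snoRNAs 1 fell, 1 rose, 1 did not pass the test and 1 had no reads. Snhg12, which carries H/ACA RNAs and the box C/D RNA Snord99, is at chromosome 4, 132308623 to 132311024. Snhg12 had 22.7, 21.7 and 21.9 RPKM in OMP libraries, against 51.3, 44.5 and 46.9 RPKM in Vehicle libraries, again with no overlap (log2 fold change -1.09 ± 0.06 SE, limma adjusted p = 6.48e-06). Snhg8, the host of Snora24, is at chromosome 3, 123507552 to 123508404. Snhg8 had 28.8, 31.9 and 29.1 RPKM in OMP libraries, against 29.3, 34.0 and 28.8 RPKM in Vehicle libraries. These groups overlapped, and the 95% interval of the fold ran from 0.865 to 1.10 (limma adjusted p = 0.746).

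Snhg4, the host of Snora74a, shares its locus with the gene for the nuclear matrix protein matrin. RefSeq places it at chromosome 18, 35553410 to 35558316. Snhg4 had 11.9, 15.98 and 16.1 RPKM in OMP libraries, against 7.93, 7.40 and 10.7 RPKM in Vehicle libraries. All OMP libraries were higher, but OMP replicate 1 and Vehicle replicate 3 lay close together (log2 fold change 0.73 ± 0.16 SE, 95% interval 0.37 to 1.09, limma adjusted p = 0.00620). These values rest on at least 66, 90 and 95 reads in OMP libraries and 47, 48 and 72 reads in Vehicle libraries. Over all 6 libraries the 418 reads recovered for Snhg4 were the fewest among the 8 genes, but they are a minimum. In OMP libraries alone Snhg12 had fewer, 222 against 251 for Snhg4, and Snhg8 had 250. No annotated transcript length was available for Snhg4, so the smallest length that gives whole reads was used. Leaving out each library in turn gave log2 fold changes from 0.63 to 0.88, and the call held each time.

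Snhg3, the host of Snora73a and Snora73b, was listed at 0 in every library. It lies at chromosome 4, 132348014 to 132353686, on the same strand as Rcc1, a nucleotide exchange factor for Ran, whose span overlaps it over 5592 bases. In the annotation 83.3% of its 986 exonic bases belong to an exon of another gene on either strand, and 13.7% to an exon of a gene on the same strand. For its longest annotated transcript of 581 bases, the limit that a count of 0 allows, 3 reads, stands for 1.39 to 1.48 RPKM in OMP libraries and 1.22 to 1.38 RPKM in Vehicle libraries. That limit covers reads assigned to Snhg3 only, and how reads in shared exons were assigned is not given. Rcc1 itself had 73.4 ± 2.08 RPKM in OMP cells and 64.8 ± 4.45 RPKM in Vehicle cells (limma adjusted p = 0.0306).

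**Figure D3:**
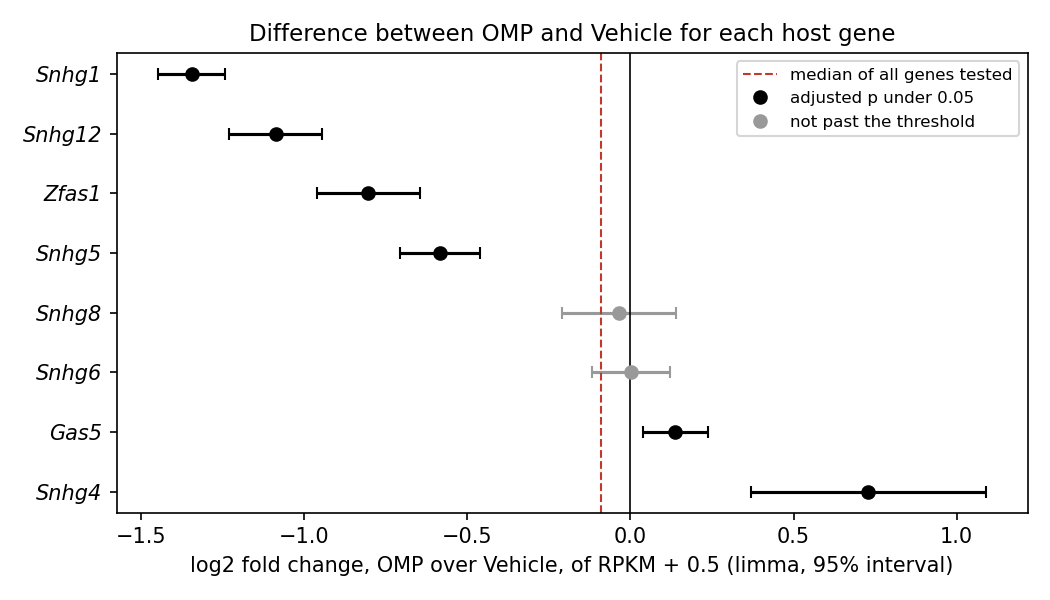
Log2 fold change of each host gene, OMP over Vehicle of RPKM + 0.5, with its 95% interval from limma (horizontal axis), black where the adjusted p was under 0.05 and grey otherwise. The dashed line is the median over all genes tested, -0.09, and the genes run from -1.34 for Snhg1 to 0.73 for Snhg4.

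The groups did not overlap in 6 of the 8 host genes, where this held for 54.5% of all genes tested. Ratios within a library do not depend on scaling between libraries, so reads of each host were set against 100 reads of Gas5. Snhg1 had 25.0, 23.8 and 23.9 reads per 100 Gas5 reads in OMP libraries, against 67.7, 69.6 and 68.0 in Vehicle libraries. Snhg12 had 6.07 ± 0.426 in OMP libraries and 14.4 ± 1.29 in Vehicle libraries, and Zfas1 had 18.2 ± 2.01 in OMP libraries and 35.04 ± 1.94 in Vehicle libraries (SD, n = 3 each). Snhg5 had 19.4 ± 1.91 in OMP libraries and 31.98 ± 0.667 in Vehicle libraries. Snhg4 moved the other way, with 6.80 ± 0.824 in OMP libraries and 4.44 ± 0.826 in Vehicle libraries. These 5 ratios did not overlap between groups, and those of Snhg6 and Snhg8 did. With 3 libraries against 3 an exact two-sided permutation test cannot go below p = 0.1, which those 5 ratios reached (0.140 after Benjamini-Hochberg adjustment over the 7 ratios), and Snhg6 and Snhg8 gave p = 0.2. A ratio of this kind shows unequal change between a host and Gas5 and does not say which of them changed. Reads of Snhg12 and Snhg4 are a minimum, so their ratios could be higher by the same factor in every library.

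**Figure D4:**
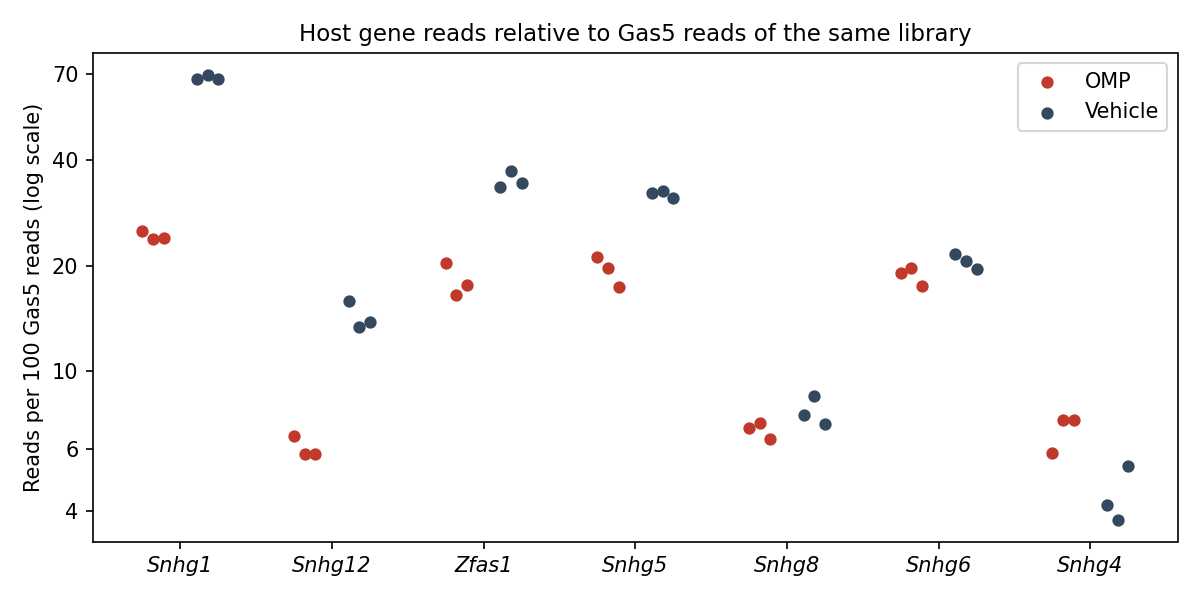
Reads of 7 host genes per 100 Gas5 reads of the same library (log scale), for OMP (red) and Vehicle (dark) libraries. Snhg1, Snhg12, Zfas1 and Snhg5 sat lower in every OMP library than in any Vehicle library, and Snhg4 sat higher.

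On the RPKM scale the order of levels in OMP cells was Gas5 (133 ± 6.07), Snhg6 (78.2 ± 4.86), Snhg5 (54.0 ± 3.49), Snhg1 (30.3 ± 0.606), Snhg8 (29.9 ± 1.74), Zfas1 (26.8 ± 1.82), Snhg12 (22.1 ± 0.517) and Snhg4 (14.7 ± 2.39). In Vehicle cells it was Gas5 (121 ± 2.67), Snhg5 (81.0 ± 1.37), Snhg6 (78.0 ± 1.94), Snhg1 (77.6 ± 2.25), Snhg12 (47.6 ± 3.44), Zfas1 (47.1 ± 3.03), Snhg8 (30.7 ± 2.87) and Snhg4 (8.67 ± 1.77). Neighbours that overlapped were Snhg1 and Snhg8 in OMP cells, and in Vehicle cells Snhg6 and Snhg1, and Snhg12 and Zfas1. The host genes together took 0.0662%, 0.0696% and 0.0688% of the reads of the OMP libraries, against 0.0854%, 0.0885% and 0.0883% of the Vehicle libraries. In these shares the reads of Snhg4 and Snhg12 are a minimum.

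The order between genes depends on the gene length used. The length behind the RPKM equalled the longest annotated transcript for 6 of the 7 host genes with reads and an annotation. For Gas5 it was 2556 bases, where the median annotated transcript has 629, for Snhg1 2728 against 602, and for Zfas1 2302 against 731. Of the annotated transcripts, 20 of 25 for Gas5, 14 of 18 for Snhg1 and 4 of 5 for Zfas1 are typed as intron-retaining. With the median annotated transcript as length, Gas5 would stand at 541 RPKM in OMP cells and 492 RPKM in Vehicle cells. Snhg1 would stand at 137 RPKM in OMP cells and 352 RPKM in Vehicle cells, next after Gas5 in both groups. With the union of annotated exons as length, Snhg1 would stand at 27.8 RPKM in OMP cells, below Snhg6 (55.7) and Snhg5 (38.1). In Vehicle cells it would stand at 71.3 RPKM, next after Gas5 (82.3). Fold changes do not depend on the length used, apart from the small effect of the pseudocount.

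Promoter sequences from RefSeq (GRCm38.p6) were available for 7 of the 9 genes and not for Snhg4 and Snhg6. A stretch of 70 bases that begins 40 bases before the annotated start is printed for each, because the TOP tract that many hosts share lies there. Capitals mark the longest run of C or T that touches the 10 bases before to 15 bases after the annotated start, and TATA where it lies between 40 and 17 bases before the start.
Snhg1 (chr19:8723447-8723516, + strand): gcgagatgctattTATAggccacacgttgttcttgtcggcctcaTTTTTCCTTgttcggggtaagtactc
Snhg12 (chr4:132308638-132308707, + strand): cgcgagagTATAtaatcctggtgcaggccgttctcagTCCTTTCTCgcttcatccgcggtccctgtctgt
Zfas1 (chr2:167062894-167062963, + strand): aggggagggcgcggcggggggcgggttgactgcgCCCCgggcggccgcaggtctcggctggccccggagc
Snhg5 (chr9:88522868-88522937, - strand): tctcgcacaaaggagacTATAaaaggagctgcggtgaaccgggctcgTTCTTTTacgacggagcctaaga
Snhg8 (chr3:123508307-123508376, - strand): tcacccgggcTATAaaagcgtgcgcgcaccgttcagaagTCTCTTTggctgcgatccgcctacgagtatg
Gas5, downstream start (chr1:161035126-161035195, + strand): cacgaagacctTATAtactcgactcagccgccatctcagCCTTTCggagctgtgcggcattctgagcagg
Gas5, upstream start (chr1:161034561-161034630, + strand): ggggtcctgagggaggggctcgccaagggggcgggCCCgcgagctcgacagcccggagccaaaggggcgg
Snhg3 (chr4:132353657-132353726, - strand): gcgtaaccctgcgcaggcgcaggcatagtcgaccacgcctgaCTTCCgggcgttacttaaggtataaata
TATA, which reads alike on both strands, was found in the windows of Snhg1, Snhg12, Snhg5, Snhg8 and the downstream start of Gas5, or 5 of 8 windows, against 5.81% of all 32851 promoters in the table. A run of at least 6 C or T was found at the same 5 starts, against 33.1% of all promoters, and was searched on the gene's strand only. The runs were 9 bases in Snhg1 and Snhg12, 7 in Snhg5 and Snhg8 and 6 at the downstream start of Gas5. CACGTG, also alike on both strands and searched over all 300 bases, was in 0 of the 8 windows, against 7.15% of all promoters. Genes that fell (Snhg1, Snhg12 and Snhg5) and genes that did not (Snhg8 and Gas5) both had the TATA letters and a run of at least 6 C or T. Zfas1, which also fell, had no TATA in this window and a longest run of 4. The runs of Snhg1 and Snhg5 began 4 and 7 bases after the annotated start, and annotated starts can lie some bases away from the true ones. The part of these letters in the differences between OMP and Vehicle cells was not tested.

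Genes next to the hosts did not all share their direction. Slc3a2, the heavy chain of amino acid transporters, starts 105 bases from Snhg1 on the opposite strand and had 158 ± 1.83 RPKM in OMP cells and 187 ± 4.75 RPKM in Vehicle cells, a 1.18-fold fall (limma adjusted p = 0.000794). Trnau1ap, a selenocysteine tRNA-binding protein gene 738 bases from Snhg12, rose 1.18-fold to 31.3 ± 3.30 RPKM in OMP cells, against 26.3 ± 0.905 RPKM in Vehicle cells (limma adjusted p = 0.0358). Znfx1, whose exons overlap Zfas1 by 82 bases on the opposite strand, had 4.26 ± 0.339 RPKM in OMP cells and 3.82 ± 0.202 RPKM in Vehicle cells (limma adjusted p = 0.389). Syncrip, an RNA-binding protein gene known as a neighbour of Snhg5, rose 1.27-fold to 41.3 ± 1.75 RPKM in OMP cells, against 32.4 ± 0.544 RPKM in Vehicle cells (limma adjusted p = 0.000880). Matr3, which encodes matrin at the Snhg4 locus, had 43.9 ± 2.04 RPKM in OMP cells and 47.7 ± 1.14 RPKM in Vehicle cells (limma adjusted p = 0.0901). The difference in fold change between a host and its neighbour was not tested. Of a list of 9 genes known as neighbours of the hosts 6 were tested, of which 3 rose and 1 fell. TPM rescaling gave 1 and 2, and median-of-ratios scaling and quantile normalization each gave 3 and 1. Beside this list and those that follow, 15.4% of all genes tested were called higher and 27.5% lower, with a median of -0.09.

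Other noncoding hosts likewise moved in both directions. In a list of 15 further host RNAs 9 were tested, of which 2 rose and 2 fell, with a median log2 fold change of 0.08 (-0.00295 after TPM rescaling). Median-of-ratios scaling gave 2 and 1, with a median of 0.17, and quantile normalization 2 and 2, with a median of 0.16. Snhg15 rose 1.29-fold to 62.4 ± 1.58 RPKM in OMP cells, against 48.5 ± 4.64 RPKM in Vehicle cells (limma adjusted p = 0.00294). 2410006H16Rik, in which the annotation places 3 snoRNAs, fell 1.47-fold to 198 ± 14.1 RPKM in OMP cells, against 291 ± 9.76 RPKM in Vehicle cells (limma adjusted p = 0.000106). GENCODE places a snoRNA in 55 further genes not typed as protein-coding, some of them in that list. Of these 15 were tested, of which 2 rose and 4 fell, with a median of -0.06. The lowest was 9330159M07Rik, which fell 2.40-fold to 1.88 ± 0.247 RPKM in OMP cells, against 5.21 ± 0.400 RPKM in Vehicle cells (limma adjusted p = 0.000263).

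Ribosomal protein genes that host snoRNAs fell in 16 of 23 tested and rose in 1, with a median of -0.16. After median-of-ratios scaling 10 fell and 3 rose, with a median of -0.08. TPM rescaling gave 19 falls and 1 rise, and quantile normalization 19 falls and 2 rises. Rpl5 fell 1.39-fold to 284 ± 2.63 RPKM in OMP cells, against 394 ± 7.45 RPKM in Vehicle cells, and Rpl3 fell 1.38-fold (limma adjusted p = 1.24e-05 and 2.35e-05). Of 26 other protein-coding hosts 12 rose and 4 fell, with a median of 0.14. TPM rescaling gave 10 and 7 with a median of 0.06, median-of-ratios scaling 14 and 2, and quantile normalization 12 and 5. Hspa8, a constitutive chaperone that hosts Snord14 RNAs, rose 2.20-fold to 503 ± 7.12 RPKM in OMP cells, against 229 ± 11.1 RPKM in Vehicle cells (limma adjusted p = 4.85e-07). Eef2, the translocation factor of translation, fell 1.66-fold to 792 ± 17.9 RPKM in OMP cells, against 1310 ± 23.1 RPKM in Vehicle cells (limma adjusted p = 1.19e-06). Over all 258 protein-coding genes in which GENCODE places a snoRNA, 191 were tested, with a median of -0.01. Of these 38 (19.9%) rose and 56 (29.3%) fell, near the 15.4% and 27.5% of all genes tested. Median-of-ratios scaling gave 53 that rose and 45 that fell, with a median of 0.08. TPM rescaling gave 24 and 76, with a median of -0.09, and quantile normalization 48 and 58, with a median of 0.02.

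Of 17 other genes known for a TOP tract 3 rose and 9 fell, with a median of -0.21. The counts were 3 and 13 after TPM rescaling, 3 and 9 after median-of-ratios scaling, and 3 and 12 after quantile normalization. Eef2 stands in that list too, and Hnrnpa1, an RNA-binding protein of splicing, fell 1.596-fold to 233.7 ± 3.91 RPKM in OMP cells, against 373 ± 11.9 RPKM in Vehicle cells (limma adjusted p = 4.14e-06). The factor Myc, a known driver of ribosome production, had 217 ± 11.6 RPKM in OMP cells and 204 ± 4.18 RPKM in Vehicle cells (limma adjusted p = 0.137).

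Of 8 core proteins of box C/D and H/ACA particles 5 rose and 0 fell, with a median of 0.20. After TPM rescaling 2 rose and 1 fell, with a median of 0.12. Median-of-ratios scaling and quantile normalization each gave 5 and 0. Nop56, a box C/D core protein whose own gene hosts snoRNAs, rose 1.74-fold to 245 ± 6.52 RPKM in OMP cells, against 141 ± 3.40 RPKM in Vehicle cells (limma adjusted p = 1.93e-06). Dkc1, the pseudouridine synthase dyskerin of H/ACA particles, rose 1.38-fold to 118 ± 1.55 RPKM in OMP cells, against 85.2 ± 0.522 RPKM in Vehicle cells (limma adjusted p = 2.63e-05). Nop58 had 43.4 ± 1.05 RPKM in OMP cells and 42.5 ± 1.03 RPKM in Vehicle cells, and the methyltransferase gene Fbl had 74.4 ± 3.80 RPKM in OMP cells and 80.6 ± 2.47 RPKM in Vehicle cells (limma adjusted p = 0.618 and 0.0908). Of 10 assembly factors 5 rose and 1 fell. The counts were 3 and 2 after TPM rescaling, 6 and 0 after median-of-ratios scaling, and 5 and 0 after quantile normalization. Among the assembly factors Nolc1, a nucleolar chaperone of snoRNPs, rose 1.33-fold and Nufip1, a box C/D assembly factor, rose 1.46-fold (limma adjusted p = 0.000373 and 0.000912).

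Host transcripts are cleared and their introns processed by several machineries, given here as lists. Of 10 nonsense-mediated decay factors 3 rose and 1 fell, with a median of 0.07. TPM rescaling gave 2 and 2 with a median of -0.01, and median-of-ratios scaling and quantile normalization each gave 3 and 1. The helicase gene Upf1 had 44.6 ± 2.87 RPKM in OMP cells and 42.8 ± 1.14 RPKM in Vehicle cells (limma adjusted p = 0.422). The kinase gene Smg1 had 13.9 ± 2.49 RPKM in OMP cells and 12.04 ± 1.2497 RPKM in Vehicle cells (limma adjusted p = 0.273). Smg5, an adaptor of decay, rose 1.24-fold and Smg9, a regulator of the Smg1 kinase, fell 1.29-fold (limma adjusted p = 0.000733 and 0.00252). Of 5 exon junction complex genes 1 rose and 0 fell. TPM rescaling gave 0 and 1, and median-of-ratios scaling and quantile normalization each gave 1 and 0. Magoh of that complex rose 1.23-fold, and its copy Magohb had 28.4 ± 4.61 RPKM in OMP cells and 24.5 ± 1.42 RPKM in Vehicle cells (limma adjusted p = 0.0201 and 0.175). Of 10 genes of snoRNA processing and debranching 3 rose and 1 fell. TPM rescaling gave 1 and 2, and median-of-ratios scaling and quantile normalization each gave 5 and 1. Dbr1, the lariat debranching enzyme that frees intronic snoRNAs, fell 1.28-fold to 12.4 ± 1.13 RPKM in OMP cells, against 16.1 ± 1.14 RPKM in Vehicle cells, and Exosc10, a nuclear exosome exonuclease, rose 1.32-fold (limma adjusted p = 0.0110 and 0.000293).

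**Figure D5:**
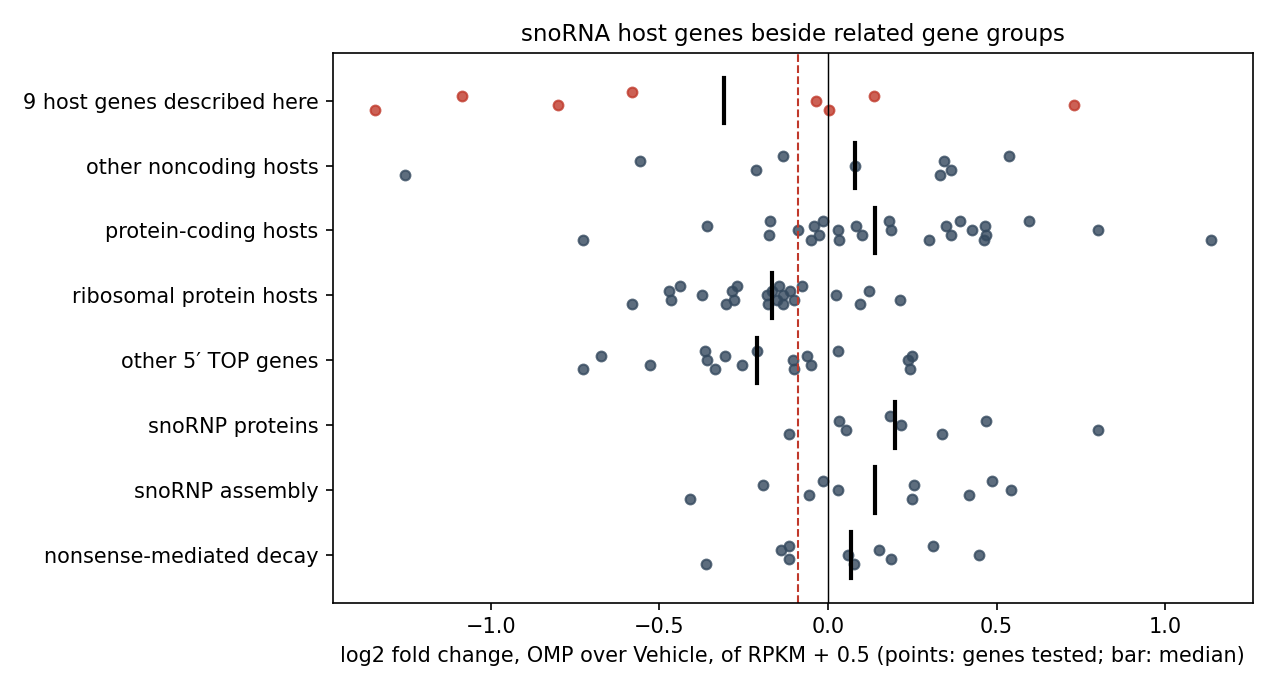
Log2 fold change, OMP over Vehicle of RPKM + 0.5, of each gene tested (points) in the host genes and in 7 related groups, with the group median as a bar and the median over all genes as a dashed line. Host genes spread from -1.34 to 0.73 around a median of -0.31, ribosomal protein hosts lie around -0.16 and snoRNP proteins around 0.20.

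The genes most like Gas5 over the 6 libraries were found by the root mean square difference of their log2(RPKM + 0.5) values, centred per gene, among genes with a mean of at least 5 RPKM. The other host genes, gene models named Gm or Rik, and pseudogenes were left out. The nearest 5 were Ddx39 (0.0184), Acot9 (0.0233), Slc9a8 (0.0238), Gbf1 (0.0256) and Cyb5r1 (0.0266). For comparison the difference from Gas5 was 0.0495 for Myc. Ddx39, an RNA helicase gene, had 69.6 ± 3.14 RPKM in OMP cells and 62.2 ± 1.63 RPKM in Vehicle cells.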

How the data were processed

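The authors deposited RPKM values, reads scaled to gene length and library size, in 1 table with a column per library, matched here by title. Per the submitters' processing notes the build was mm10 (GRCm38), and the named tools were featureCounts 1.6.3, STAR 2.5.3a, FastQC 0.11.5 and Trimmomatic 0.36. Annotation release, strand setting and handling of overlapping genes are not given, so overlapping and antisense reads cannot be separated. Whole reads and library totals were recovered from the RPKM steps (100% of 19970 genes above 0, relative tolerance 1e-06). Where no annotated transcript length gave whole reads, as for Snhg4 and Snhg12, the smallest length that did was used. Those reads are a minimum. Reads are not molecules, so intervals from reads cover counting error only. Values were fitted as log2(RPKM + 0.5) with limma 3.58.1 (R 4.3.3, trended prior, no covariates, all 6 libraries), and the procedure was tested on simulated data. Host genes and lists were chosen with earlier results of these data known. Named genes are the 9 hosts, the 2 genes with the smallest p in each list, 10 genes fixed by name and the 5 nearest to Gas5, and Trnau1ap, Hoxa9 and others given beside them were added as neighbours or markers. In 1 list 1 symbol, Snhg16, and in another Nhp2l1 matched no row. Alternatives numbered 17 planned and 2 added after seeing the data (thinning, no features under 200 bases). Libraries of a group differed beyond sampling noise (chi-square per degree of freedom 1.18 to 1.57). Figures used matplotlib 3.10.9.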

Additional observations from a re-analysis of the deposited data

How the results depend on the processing

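The falls of Snhg1, Snhg12, Zfas1 and Snhg5 and the rise of Snhg4 kept direction and call under all 19 alternatives. Their log2 fold changes ran from -1.44 to -1.26, -1.18 to -0.999, -0.89 to -0.71, -0.67 to -0.49 and 0.63 to 0.88. Gas5 kept its direction in 19 and its call in 11. Of the host genes 5 or 6 were called, also when each library was left out in turn. Snhg6 and Snhg8, called nowhere, changed sign near 0. Snhg6 went below 0 after TPM rescaling (-0.082) and thinning (-0.041), and ran from -0.048 to 0.028 without each library. Snhg8 went above 0 after median-of-ratios scaling (0.054) and quantile normalization (0.034), and ran from -0.081 to 0.040 without each library. The cause of these sign changes was not tested. Over all genes 3952 to 4207 were called without each library, and at an adjusted p under 0.01, by construction, 3070 instead of 4735. With voom on recovered reads 5481 were called, but of 12985 genes that passed another filter, against 11020 in the main fit. The labels do not say whether equal replicate numbers pair the libraries. For equal numbers, deviations from the group means gave correlations of -0.00244, 0.0155 and 0.00694, which cannot decide this with 3 libraries per group. With the replicate block 4445 genes and 6 host genes were called. With thinned reads the limma adjusted p was 0.0497 for Gas5, which ran from 0.00302 to 0.341 over all alternatives, and 0.0124 for Snhg4, whose highest was 0.0238.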
